A study of Mus musculus with 2 samples.

Results

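Vascular endothelial growth factors (VEGFs) and their receptors were examined in 2 single-cell RNA-Seq libraries of aged mouse hindlimb muscle. The set comprised 10 of the 32285 genes in the files, taken by symbol: the ligands Vegfa, Vegfb, Vegfc, Vegfd and Pgf, the receptor tyrosine kinases Flt1, Kdr and Flt4, and the coreceptors Nrp1 and Nrp2. All 10 had at least 100 unique molecular identifiers (UMIs, each standing for 1 captured mRNA molecule) over the kept cells. The ATRA+agonist library came from female C57Bl/6J mice, 24 months old, given 3 intramuscular injections of all-trans retinoic acid (ATRA) with CD3254, an agonist of the retinoid X receptor RXRα, and BMS961, an agonist of the retinoic acid receptor RARγ. The DMSO vehicle library came from mice of the same strain, sex and age injected with the solvent alone. Each library pooled cells of 2 mice, live cells were sorted from dissociated quadriceps and gastrocnemius, and no library was repeated, so no test between treatments could be made. Every interval given is a 95% interval and covers counting error only, not the spread between mice. Intervals of levels and ratios also leave out the clumping of UMIs in single cells.

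VEGFs are secreted dimers that direct the growth, survival and permeability of vessels. VEGF-A signals mainly through Kdr (VEGFR2), the principal mitogenic receptor of blood endothelium, whereas Flt1 (VEGFR1) binds VEGF-A, VEGF-B and placental growth factor (Pgf) tightly, signals weakly and also exists as a soluble decoy. VEGF-C and VEGF-D act on Flt4 (VEGFR3), the receptor of lymphatic endothelium, and neuropilins bind both VEGFs and semaphorins. In skeletal muscle, fibers and stromal cells supply ligand to a dense capillary bed, and muscle stem cells (MuSCs) lie close to capillaries. Intact fibers are largely lost on dissociation and sorting, so the ligand made by fibers was mostly not sampled.

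The genes are dispersed over the genome (GRCm38, GENCODE M21 gene models). Kdr lies at chr5:75932827-75978458 and Flt1 at chr5:147561604-147726011, both on the minus strand. Flt4 lies at chr11:49609263-49652739, Nrp1 at chr8:128358604-128503363 and Nrp2 at chr1:62703285-62818695, all on the plus strand. Among the ligands, Vegfa (chr17:46016993-46032369), Vegfb (chr19:6982473-6987651) and Pgf (chr12:85166635-85177790) lie on the minus strand, and Vegfc (chr8:54077606-54187096) and Vegfd (chrX:164373378-164402650) on the plus strand.

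The RefSeq promoter windows (GRCm38.p6, 250 bases before to 50 bases after a start) gave 12 windows for the 10 genes, with 2 each for Vegfa and Pgf. Of these, 4 are printed 5′ to 3′ in the direction of transcription: the pair of blood endothelial receptors that gave unequal values below, Vegfb, the window with most matches to the half-site bound by retinoid receptors, and Vegfd, which stood apart in base composition. Capitals mark GGGCGG (a GC box), AGGTCA (a nuclear receptor half-site) and TATAAA, each on either strand, and overlapping matches run together.
Kdr, minus strand, chr5:75978406-75978705: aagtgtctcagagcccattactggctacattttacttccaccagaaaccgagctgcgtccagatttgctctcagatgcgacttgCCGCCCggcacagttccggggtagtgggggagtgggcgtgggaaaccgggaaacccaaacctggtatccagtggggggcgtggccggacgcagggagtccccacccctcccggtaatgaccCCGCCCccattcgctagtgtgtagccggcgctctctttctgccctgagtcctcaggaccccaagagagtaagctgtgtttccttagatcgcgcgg
Flt1, minus strand, chr5:147725962-147726261: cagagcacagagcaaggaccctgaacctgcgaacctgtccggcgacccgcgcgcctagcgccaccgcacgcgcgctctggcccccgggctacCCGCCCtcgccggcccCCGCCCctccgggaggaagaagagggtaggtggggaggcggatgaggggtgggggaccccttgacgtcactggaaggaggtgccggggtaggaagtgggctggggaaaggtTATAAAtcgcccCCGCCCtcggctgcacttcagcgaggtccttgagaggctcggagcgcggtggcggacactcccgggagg
Vegfb, minus strand, chr19:6987602-6987901: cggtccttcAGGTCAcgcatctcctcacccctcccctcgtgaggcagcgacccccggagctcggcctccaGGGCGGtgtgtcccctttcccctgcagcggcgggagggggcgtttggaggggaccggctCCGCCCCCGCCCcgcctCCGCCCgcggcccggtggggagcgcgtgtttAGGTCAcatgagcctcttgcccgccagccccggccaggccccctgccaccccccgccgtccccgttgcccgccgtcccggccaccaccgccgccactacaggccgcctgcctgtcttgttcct
Vegfd, plus strand, chrX:164373272-164373571: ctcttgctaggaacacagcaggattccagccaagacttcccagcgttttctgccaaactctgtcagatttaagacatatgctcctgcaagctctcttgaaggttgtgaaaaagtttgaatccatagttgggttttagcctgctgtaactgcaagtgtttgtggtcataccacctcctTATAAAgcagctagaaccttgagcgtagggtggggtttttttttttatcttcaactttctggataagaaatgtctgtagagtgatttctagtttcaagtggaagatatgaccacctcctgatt
A GC box was present in 10 of the 12 windows and in 35.7% of all 32851 windows in the table. The Vegfd window, with 42.0% G and C against a median of 52.7% for all windows, held no GC box but a TATAAA match, as did 13.6% of all windows. Every other window of the family was above that median, from 59.3% (Vegfa) to 75.3% (Vegfb). GC box matches were not compared with windows of like base composition. The half-site AGGTCA occurred in 2 of the 12 windows, with 2 matches in Vegfb and 1 in Nrp1, and in 16.3% of all windows. A direct repeat of this half-site with a spacer of 5 bases was found in 0 of the 12 windows and in 0.00913% of all. The core CCGGAA of ETS factor sites, present in 14.9% of all windows, was matched in Kdr only. ACGTG, the core of hypoxia response elements (19.6% of all windows), was matched in 1 of the Vegfa windows only. These are letter matches within 300 bases and were not measured as bound sites.

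The ATRA+agonist library held 10444 barcodes and 65197625 UMIs, of which 6907 cells were kept, and the vehicle library held 17394 barcodes and 109343486 UMIs, of which 6953 were kept. Kept cells had a median of 4694 and 4843 UMIs, respectively. The hemoglobin filter was failed by 2656 and 9721 barcodes. The libraries shared 43 barcodes, 9 of them among kept cells. Clustering without the 10 genes, the pathway lists or an interferon response list gave 28 clusters and 14 cell classes named from markers, 7 of which had at least 100 cells in both libraries and were compared. The libraries differed in makeup: an endothelial cluster led by interferon-induced genes (Cd274, Gbp4, Ubd) held 49 ATRA+agonist and 900 vehicle cells, tenocyte-like cells numbered 164 and 502, and myonuclei-like profiles 230 and 19.

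Transcripts of the 3 receptor kinases were concentrated in endothelial-like cells, a class of 2546 and 2413 cells in which all 10 endothelial markers were detected in both libraries. Levels are UMIs of a gene per 1000000 UMIs of the class (CPM). Levels of different genes were not ranked against each other, and where UMIs of a gene are given per UMI of another, the ratio serves only to compare libraries or classes. This class, 36.9% of the kept cells after ATRA+agonist and 34.7% after vehicle, held 98.8% and 95.2% of Flt1 UMIs, 97.6% and 95.8% of Kdr UMIs, and 87.6% and 91.0% of Flt4 UMIs. In B cell-like cells, taken as a class without these receptors, Kdr was at 3.77 CPM (2.16–6.12) in the ATRA+agonist library and 2.13 CPM (0.0539–11.9) in vehicle. After each cell was thinned to 1000 UMIs, Kdr was detected in 59.4% of ATRA+agonist and 47.4% of vehicle endothelial-like cells and in 0 of 646 and 0 of 80 B cell-like cells. Before thinning, the shares were 76.7% and 70.3% in endothelial-like cells and 0.924% and 1.25% in B cell-like cells, with median depths of 2766.5 and 3124 UMIs in the former and 5397 and 4472.5 in the latter.

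**Figure D1:**
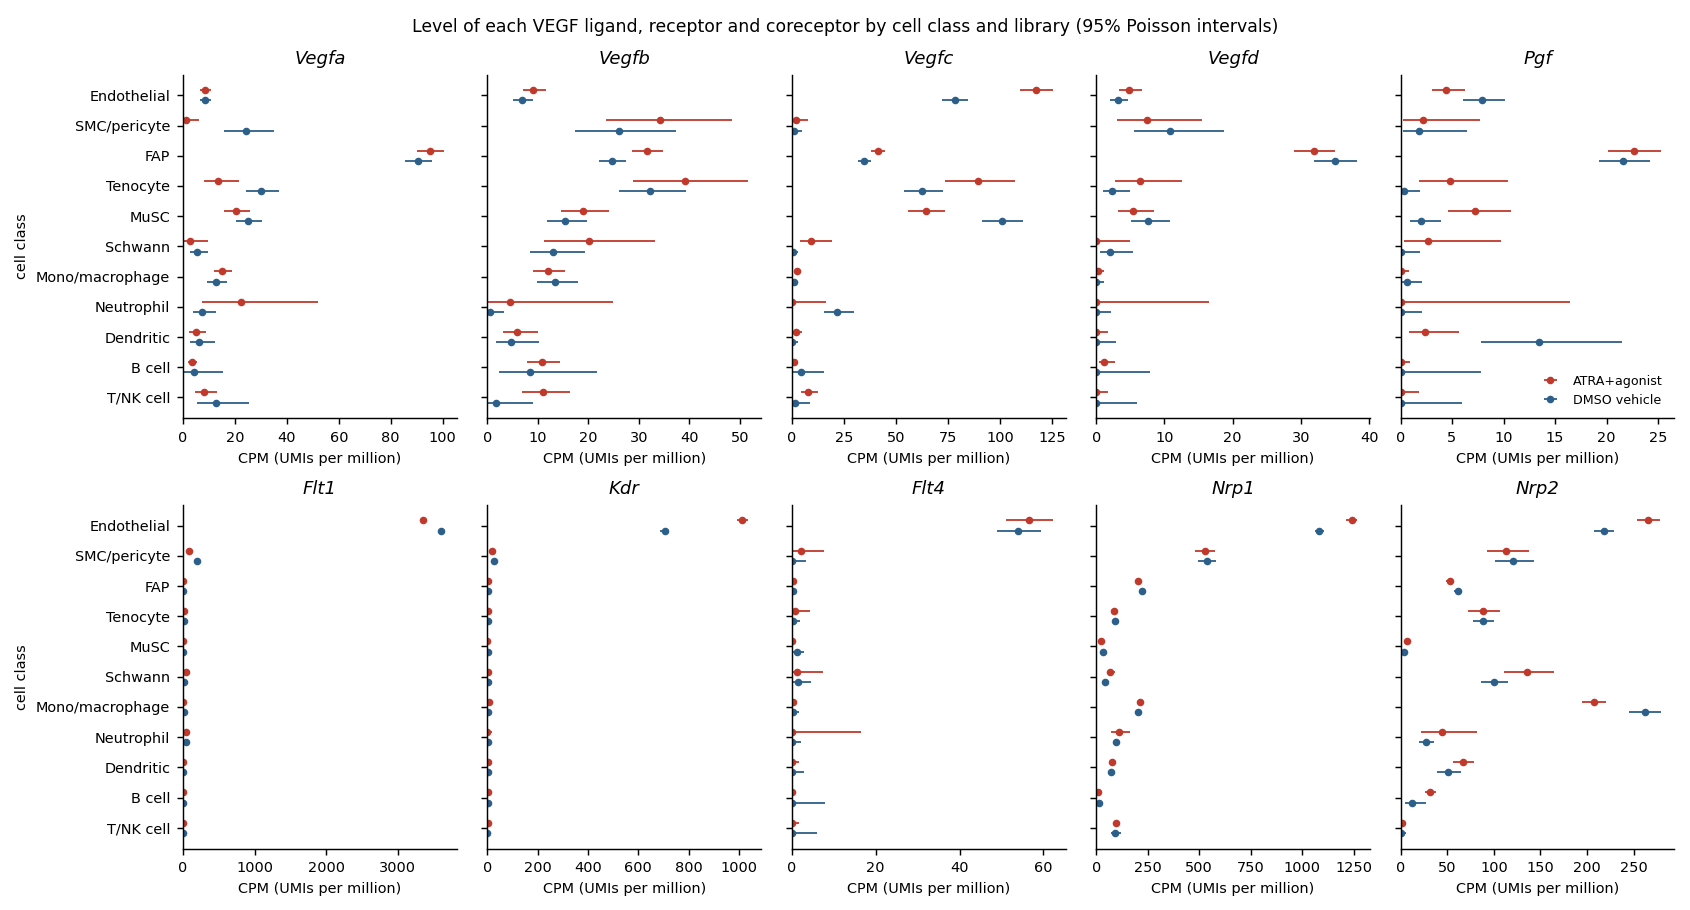
Level of each gene (x axis, CPM, linear from 0) in 11 cell classes (y axis) of the ATRA+agonist (red) and DMSO vehicle (blue) libraries. Points are library values and bars 95% Poisson intervals. Mast, perineurial and myonuclei-like classes are left out. Flt1, Kdr and Flt4 stand far above other classes in endothelial-like cells, Vegfa, Vegfd and Pgf are highest in fibro-adipogenic progenitor (FAP)-like cells, and the neuropilins are present in several classes.

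Kdr was higher in endothelial-like cells of the ATRA+agonist library, at 1013 CPM (990.3–1037) against 704.3 CPM (685.9–723.1) in vehicle, a log2 ratio of 0.52 (0.47–0.58). Flt1 was at 3360 CPM against 3603 CPM, a log2 ratio of -0.10 (-0.13 to -0.08), so that there were 3.32 Flt1 UMIs for each Kdr UMI in ATRA+agonist cells and 5.12 in vehicle cells, a ratio within a library that total UMIs do not enter. Flt4 was at 56.4 and 54.0 CPM, with an interval of the log2 ratio (-0.14 to 0.26) that included 0. Nrp1, at 1240 and 1082 CPM, had a log2 ratio of 0.20 (0.15–0.24), and Nrp2, at 265.5 and 218.1 CPM, one of 0.28 (0.19–0.38). None of the 5 receptor genes was past 1.5-fold, the limit used to call a gene higher or lower. Over all 11138 genes with at least 50 UMIs in this class, 5.82% were at least 1.5-fold higher and 4.32% at least 1.5-fold lower, and the median log2 ratio was 0.08. Of the 10 family members, 1 (Vegfd) was called higher and 1 (Pgf) lower, and their median log2 ratio was 0.24. The Vegfd call was lost without the interferon-led cluster (0.37), with doublets kept (0.32) and after thinning (0.23), among other settings, and 17 of its 35 ATRA+agonist UMIs lay in the 86 arterial-like cells.

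The size of the Kdr difference depended on the cluster. In cluster 0, the largest (led by Dach1, Adgrl4 and Aqp1, 1378 and 600 cells), Kdr was at 1109 and 935.1 CPM, a log2 ratio of 0.25 (0.17–0.32), and in cluster 11, which carried capillary markers (246 and 174 cells), at 1179 and 976.7 CPM, a log2 ratio of 0.27 (0.12–0.42). In the shallow cluster 2 (led by Rflnb and Rbp7, 650 and 372 cells with medians of 768.5 and 897.5 UMIs), Kdr was at 922.3 and 467.3 CPM, a log2 ratio of 0.98 (0.74–1.23). Cluster 13 (led by Dach1, with Mecom among its leading genes) had 420.2 and 225.8 CPM, a log2 ratio of 0.90 (0.46–1.32). Markers of other cells and mitochondrial UMIs also differed between the libraries in these 2 clusters. In cluster 2, where the platelet genes Pf4 and Ppbp led against other endothelial cells, mitochondrial UMIs were 7.83% and 6.59%, and the 10 smooth muscle or pericyte markers (9 detected in each library) summed to 1757 and 1279 CPM. In cluster 13, mitochondrial UMIs were 5.61% and 4.17%, and 6 and 7 of 10 myonuclei markers were detected, summing to 472 and 130.2 CPM. Their part in the Kdr values was not tested. In the interferon-led cluster 3, Kdr was at 696.5 and 722.5 CPM and the interval of the log2 ratio (-0.32 to 0.20) included 0. With both libraries weighted to the same cluster makeup, an alternative added after the data were seen, the log2 ratio was 0.24, and without the interferon-led cluster it was 0.57. Over the whole class, 30 of 44 interferon response genes were at least 1.5-fold lower in the ATRA+agonist library, where the list summed to 10960 CPM against 18694 CPM. The part of this difference in the Kdr value was not tested. Flt1 had a log2 ratio below 0 in 5 of the 6 clusters, from -0.28 in cluster 3 to -0.09 in cluster 0, and one of 0.17 in cluster 2. For Nrp1, the interval within cluster 0 (-0.04 to 0.09) included 0.

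Endothelial segments differed in receptor content in both libraries. Arterial-like cells (cluster 18, all 8 arterial markers, 86 and 126 cells) had Kdr at 165.0 and 110.5 CPM (76 and 78 UMIs), below every other endothelial cluster with at least 40 cells per library, whereas their Flt1 level, 2844 and 3087 CPM, lay within the range of those clusters. Nrp2 was also lowest there, at 26.1 and 26.9 CPM, against 311.7 and 315.1 CPM in cluster 0. Venous-like cells were nearly all from vehicle (2 and 58 cells) and in vehicle had Kdr at 228.4 and Nrp2 at 541.6 CPM. Lymphatic-like cells (21 and 10 cells, 5 of 6 lymphatic markers) had the highest Flt4 level, 343.3 (248.5–462.5) and 461.1 (289.0–698.1) CPM, with Nrp2 at 271.5 and 419.2 CPM and no Nrp1 UMI in either library. Their Flt1 count was 1 UMI in the ATRA+agonist and 12 UMIs in the vehicle library. The lymphatic-like and venous-like cells were not part of the endothelial-like class, since their cluster stayed unnamed as a whole.

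**Figure D2:**
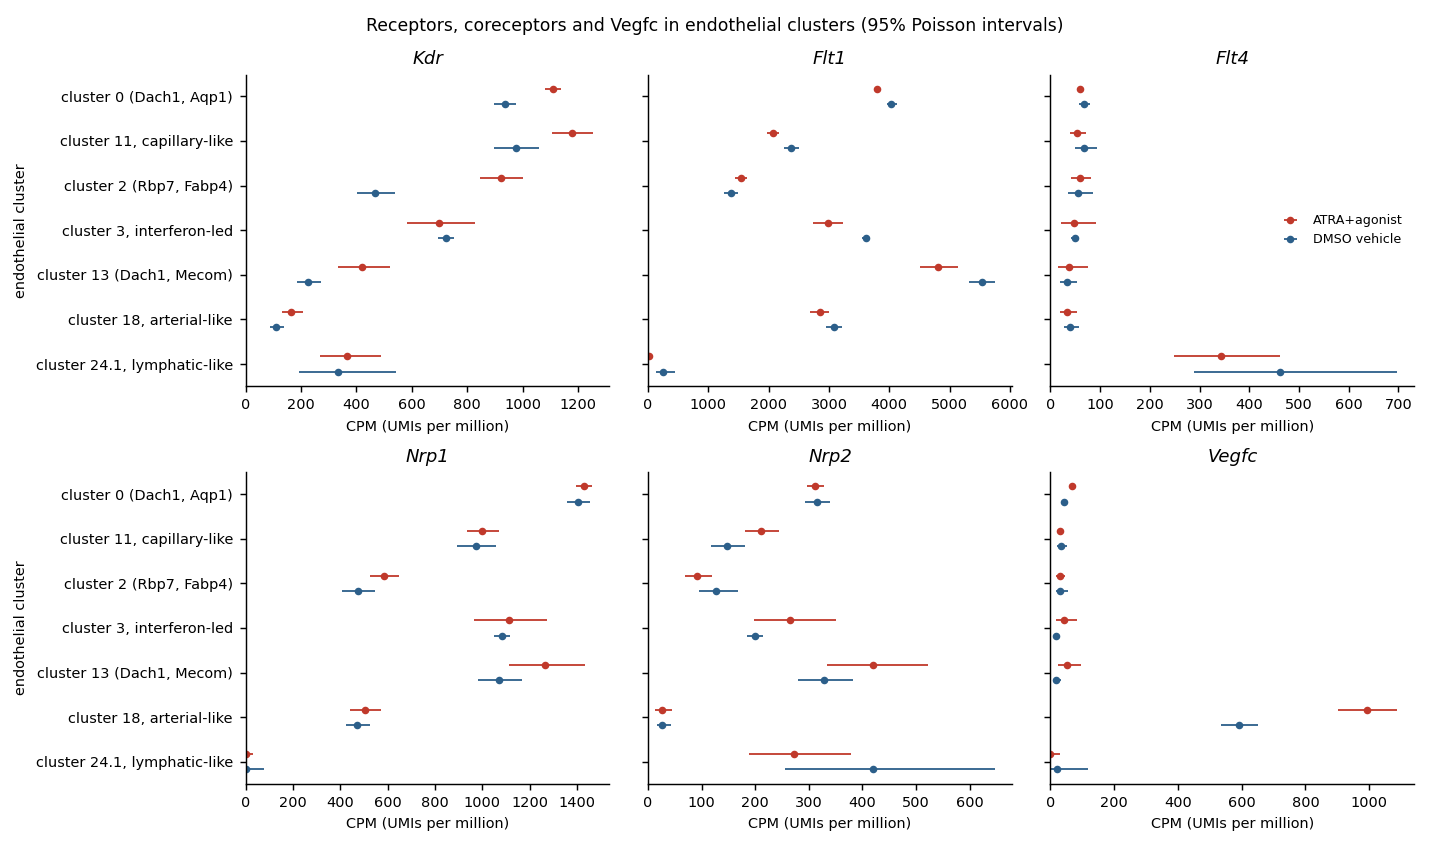
Levels (x axes, CPM, linear from 0) of Kdr, Flt1, Flt4, Nrp1, Nrp2 and Vegfc in 7 endothelial clusters (y axis) of the ATRA+agonist (red) and DMSO vehicle (blue) libraries, with 95% Poisson intervals. Kdr and Nrp2 are low in arterial-like cells of both libraries, Flt4 is highest in lymphatic-like cells, and Vegfc is highest in arterial-like cells, at 992.3 CPM in ATRA+agonist and 592.0 CPM in vehicle.

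Outside the endothelium, the receptor kinases were sparse. Smooth muscle or pericyte-like cells had Flt1 at 87.8 CPM (69.9–109.0) in the ATRA+agonist and 189.1 CPM (164.5–216.4) in the vehicle library, a log2 ratio of -1.11 (-1.49 to -0.73). This was 1 of 4 tested family members called lower, in a class in which 7.02% of genes were lower and 6.16% higher. In these cells, Flt1 UMIs numbered 10.6 for each UMI of Cdh5 (VE-cadherin, an endothelial junction protein) in vehicle, where endothelial-like cells had 3.57. In the ATRA+agonist library the values were 2.93 and 2.82. All 10 endothelial markers had UMIs in the pericyte class and summed to 530.2 CPM in the ATRA+agonist and 495 CPM in the vehicle library, against 7550.2 and 7125 CPM in endothelial-like cells, and their part in the Flt1 value was not tested. The value reversed, to a log2 ratio of 0.18, when cells were classed one by one on marker UMIs, and it was -0.31 with doublets kept. Myonuclei-like profiles had 43 Flt1 UMIs in the ATRA+agonist library and none in the 19 of vehicle. The same ATRA+agonist profiles held 18 Kdr, 20 Cdh5 and 9 Cldn5 UMIs, and all 10 endothelial markers, at 414 CPM in sum. Neutrophil-like cells (21 and 165 cells) had Flt1 at 40.2 and 44.4 CPM, with 77 Flt1 UMIs in 34 vehicle cells and 1 Kdr UMI. The vehicle cells also held 13 Cdh5 UMIs and 9 of the 10 endothelial markers, at 191.8 CPM in sum. In the ATRA+agonist library, 5 of the 10 markers were detected, at 62.5 CPM, with 0 Cdh5 UMIs. The part of endothelial RNA in these Flt1 values was not tested. In Schwann-like cells, the 26 ATRA+agonist Flt1 UMIs lay in 4 cells, 16 of them in 1 cell. The log2 ratio there was 1.48 with all cells and 0.70 (-0.60 to 1.93) without the highest cell of each library.

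The neuropilins reached beyond the vasculature. Nrp1 was highest in endothelial-like cells, followed by smooth muscle or pericyte-like cells at 525.9 and 536.0 CPM. FAP-like cells (204.0 and 223.1 CPM), monocyte or macrophage-like cells (210.5 and 203.7 CPM), mast cell-like cells (215.7 and 120.4 CPM) and perineurial-like cells (156.4 and 243.7 CPM) followed, in an order that differed between the libraries. Within FAP-like cells, Nrp1 was at 399.3 and 389.6 CPM in cluster 5 (led by Gdf10 and Fst), at 172.9 and 185.2 in cluster 1 (led by Cxcl14 and Smoc2) and at 107.1 and 105.4 in cluster 8 (led by Sema3c and Pi16). Nrp2 in monocyte or macrophage-like cells, at 207.1 CPM (194.3–221) in the ATRA+agonist and 261.9 CPM (245.0–279.6) in the vehicle library, lay below the endothelial-like level in the former and above it in the latter. Its log2 ratio in macrophages was -0.34 (-0.47 to -0.21). Macrophages were 6.30% and 5.06% of cells but held 22.4% and 19.3% of Nrp2 UMIs. They were deep cells, with 4702440 of the 41662668 UMIs of all genes after ATRA+agonist and 3421170 of 40656343 after vehicle. These shares of all UMIs also lay above their shares of cells. None of the 5 family members tested in macrophages was past 1.5-fold, where 3.67% of genes were higher and 4.21% lower. Schwann-like cells had Nrp2 at 135.7 and 100.2 CPM and Nrp1 at 68.5 and 42.3 CPM, log2 ratios of 0.44 (0.07–0.79) and 0.70 (0.16–1.22). There, 2 of 3 members tested (Flt1 and Nrp1) were at least 1.5-fold higher and 0 lower, against 6.2% and 8.58% of genes. Neither direction was kept under other processing: with doublets kept, the log2 ratios were -1.75 for Flt1 and -0.41 for Nrp1, and without the hemoglobin filter that of Flt1 was -3.96. MuSC-like cells carried little Nrp1, 22.7 and 35.2 CPM, a log2 ratio of -0.63 (-1.05 to -0.22).

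Among the ligands, Vegfa was a FAP transcript in these suspensions. FAP-like cells, 19.4% and 23.9% of cells, held 80.2% and 72.9% of Vegfa UMIs, at 95.1 CPM (90.0–100.5) in the ATRA+agonist and 90.6 CPM (85.7–95.8) in the vehicle library, and the interval of the log2 ratio (-0.04 to 0.18) included 0. All 3 FAP clusters carried it, from 85.2 to 111.5 CPM. The same class held 83.2% and 82.5% of Vegfd UMIs and 78.9% and 74.1% of Pgf UMIs. FAP-like cells were deep, with 13559782 of the 41662668 UMIs of all genes after ATRA+agonist and 13794753 of 40656343 after vehicle. These shares of all UMIs also lay above their shares of cells. Vegfd was highest in the Sema3c and Pi16 cluster, at 75.7 (66.5–85.8) and 70.3 (61.3–80.4) CPM, against 17.6 to 25.6 CPM in the other FAP clusters. Outside FAPs, Vegfd was at 36.4 and 35.5 CPM (8 and 10 UMIs) in an unnamed cluster led by Car3 and Cfd. In arterial-like cells it was at 36.9 and 8.50 CPM (17 and 6 UMIs). Pgf was at 5.70 and 7.44 CPM in the Gdf10 cluster and between 22.4 and 32.6 CPM in the other FAP clusters. Lymphatic-like cells had more, 55.9 and 62.9 CPM, but on 7 and 3 UMIs. Capillary-like cells had Pgf at 17.8 and 20.5 CPM, with UMIs in 3 and 2 cells. None of the 9 members tested in FAP-like cells was past 1.5-fold, where 3.15% of genes were higher and 6.33% lower. The nearest was Flt1 with 56 and 85 UMIs and a log2 ratio of -0.58.

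Vegfa in vehicle myonuclei-like profiles was at 116.1 CPM, above FAP-like cells, but on 3 UMIs (23.9–339.3), and in the ATRA+agonist library at 36.7 CPM. Most other classes had less than FAPs. Perineurial-like cells had 33.5 and 60.9 CPM, mast cell-like cells had 73.0 and 84.3 CPM on 23 and 21 UMIs, and an unnamed cluster led by Car3 and Cfd 31.9 and 124.2 CPM on 7 and 35 UMIs. Tenocyte-like cells had 13.6 CPM (7.90–21.7; 17 UMIs) in the ATRA+agonist and 30.2 CPM (24.3–37.2; 89 UMIs) in the vehicle library, a log2 ratio of -1.16 with an upper bound of -0.40. It was the only member of 5 tested to be called there, where 9.5% of genes were lower and 5.72% higher. In smooth muscle or pericyte-like cells, Vegfa had 1 UMI in the ATRA+agonist and 27 UMIs in 23 cells of the vehicle library, too few for a ratio under the minimum of 50 UMIs. MuSC-like cells had 20.3 and 25.2 CPM and endothelial-like cells 8.40 and 8.64 CPM, with intervals of both log2 ratios that included 0. Vegfb, a ligand of Flt1, was highest in myonuclei-like profiles, at 319.7 CPM (265.5–381.7; 122 UMIs) and 309.6 CPM (133.7–610.1; 8 UMIs). In FAP-like cells it was at 31.6 and 24.6 CPM, a log2 ratio of 0.36 (0.15–0.57), and in the Sema3c and Pi16 cluster the log2 ratio was 0.72, with a lower bound of 0.25. Over all kept cells, Vegfb was at 22.6 CPM in the ATRA+agonist and 17.3 CPM in the vehicle library, a log2 ratio of 0.39 (0.24–0.53), while 230 and 19 myonuclei-like profiles entered those sums. Over all kept cells, 0 of the 10 members were past 1.5-fold, where 6.64% of genes were higher and 9.94% lower.

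Vegfc, the main ligand of Flt4, was carried by arterial endothelium, MuSCs, tenocytes and FAPs, and its values went in different directions. In arterial-like cells it was at 992.3 CPM (903.4–1088; 457 UMIs in 74 of 86 cells) in the ATRA+agonist and 592.0 CPM (536.6–652; 418 UMIs in 97 of 126 cells) in the vehicle library, a log2 ratio of 0.75 (0.55–0.94). In cluster 0 the levels were 67.0 and 42.1 CPM, a log2 ratio of 0.67 (0.34–1.01). Over all endothelial-like cells they were 117.1 and 78.2 CPM, a log2 ratio of 0.58 (0.43–0.74), but -0.060 without the interferon-led cluster, in which vehicle Vegfc was at 18.2 CPM and whose removal left arterial-like cells as a larger share of the vehicle class. With the same cluster makeup in both libraries the log2 ratio was 0.73. In MuSC-like cells, Vegfc was lower in the ATRA+agonist library, at 64.3 CPM (56.0–73.5; 215 UMIs) against 100.9 CPM (91.2–111.2; 401 UMIs), a log2 ratio of -0.65 (-0.89 to -0.41). In vehicle, 1 MuSC held 52 of these UMIs, and without the highest cell of each library the log2 ratio was -0.56, inside the 1.5-fold limit. Vegfc and Nrp1 were the 2 of 4 members called lower in MuSC-like cells, where 4.66% of genes were lower and 6.41% higher. Neither call held throughout: Vegfc was at -0.51 and Nrp1 at -0.34 after thinning, and Nrp1 at -0.27 with cells classed on marker UMIs. In cluster 4, which held 352 and 495 of the MuSC-like cells, Vegfc was at 49.6 and 92.5 CPM, a log2 ratio of -0.90 (-1.18 to -0.62), whereas Nrp1 was at -0.56, inside the limit. The vehicle cell with 52 Vegfc UMIs was in cluster 4, and no ratio without it was computed there. Both Vegfc levels were below those of the whole class, so Vegfc was higher in cluster 23, the rest of the MuSC-like cells. Tenocyte-like cells had Vegfc at 89.3 and 62.8 CPM, a log2 ratio of 0.51 (0.16–0.85), and FAP-like cells at 41.4 and 34.9 CPM, one of 0.25 (0.07–0.43).

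**Figure D3:**
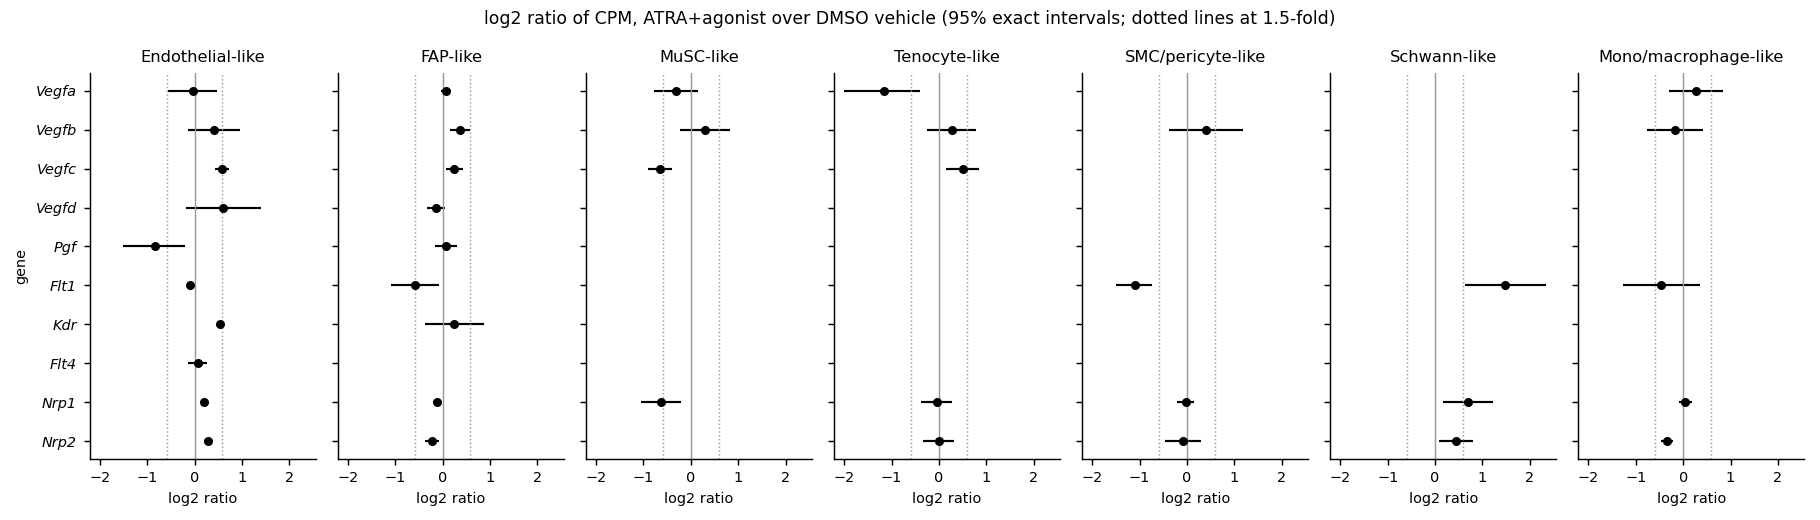
log2 ratio of CPM, ATRA+agonist over DMSO vehicle (x axis), for each gene (y axis) with at least 50 UMIs in a class, in 7 cell classes. Points are ratios of 1 library to the other, bars 95% exact intervals and dotted lines 1.5-fold. Kdr and Vegfc lie to the right in endothelial-like cells, Vegfc and Nrp1 to the left in MuSC-like cells, and Flt1 to the left in smooth muscle or pericyte-like cells.

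Genes that endothelial cells are known to raise in response to VEGF were examined as a list of 13, of which 12 had at least 50 UMIs. The list was chosen with earlier results of these data known, so its count past the limit is a description and not a test. In the ATRA+agonist library 5 of the 12 were at least 1.5-fold higher and 0 lower, against 5.82% and 4.32% of all genes, with a median log2 ratio of 0.33 against 0.08 for all genes. Esm1 (endocan, a tip cell proteoglycan) was at 19.4 and 4.19 CPM, a log2 ratio of 2.21 (1.65–2.80), with UMIs in 56 and 16 cells. Hlx, a homeobox transcription factor, was at 51.8 and 17.9 CPM, a log2 ratio of 1.53 (1.25–1.82), in 306 and 125 cells. Aplnr, the apelin receptor, was at 76.8 and 29.1 CPM, a log2 ratio of 1.40 (1.18–1.63), in 312 and 142 cells. Apln, its ligand, was at 18.6 and 6.48 CPM, a log2 ratio of 1.52 (1.04–2.01), but 1 cell held 51 of its 135 ATRA+agonist UMIs and the log2 ratio was 1.05 (0.51–1.61) without the highest cell of each library. Cxcr4, a chemokine receptor named after its value was seen, was at 24.5 and 12.5 CPM, a log2 ratio of 0.98 (0.61–1.35). Under the 12 alternatives for which the list was counted again, 5 or 6 genes were past 1.5-fold, although Apln was at 0.44 after thinning. Esm1, Hlx and Aplnr kept log2 ratios of 1.64, 1.57 and 0.85 without the interferon-led cluster and of 2.12, 1.26 and 0.92 with the same cluster makeup. The makeup values lean on the interferon-led cluster, where 49 ATRA+agonist cells held 7 Esm1, 7 Hlx and 16 Aplnr UMIs.

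The higher values were not spread evenly. Esm1 had 91 and 9 UMIs in cluster 0, a log2 ratio of 2.21, but 18 and 16 UMIs in the capillary-like cluster 11, where the log2 ratio was -0.36. Hlx was higher in the ATRA+agonist library in both, at 51.2 and 24.14 CPM in cluster 0 and 98.4 and 27.4 CPM in cluster 11. Aplnr had log2 ratios of 0.46 in cluster 0 and 0.26 in cluster 11, and 2.86 in the interferon-led cluster, where it was at 85.1 and 11.7 CPM. Of the 135 ATRA+agonist UMIs of Apln, 77 lay in cluster 11, against 8 in vehicle, a log2 ratio of 2.74. The cell with 51 Apln UMIs was in cluster 11, and no ratio without it was computed there. Apln had 0.40 in cluster 0 and -1.02 on 6 and 8 UMIs in cluster 2. Cxcr4 was inside 1.5-fold in cluster 0 (0.56) and cluster 11 (0.099). The same held on few UMIs in cluster 2 (0.39) and cluster 13 (0.35). Cxcr4 was past 1.5-fold in the interferon-led cluster, with a log2 ratio of 2.18 on 9 and 36 UMIs. In arterial-like cells it was also past the limit, but on 3 and 2 UMIs. The notch ligand Dll4, at 150.2 and 119.5 CPM, had a log2 ratio of 0.33, and Rcan1, an inhibitor of calcineurin, one of -0.40, both inside 1.5-fold.

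**Figure D4:**
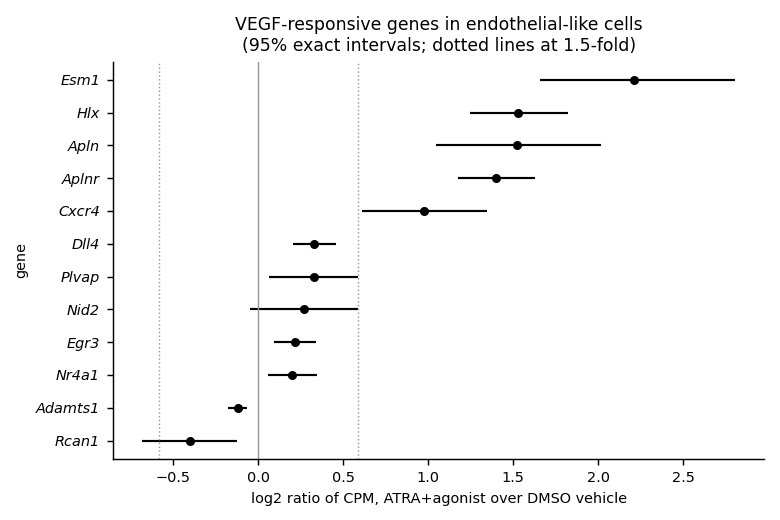
log2 ratio of CPM, ATRA+agonist over DMSO vehicle (x axis), in endothelial-like cells for the 12 measured VEGF-responsive genes (y axis), with 95% exact intervals and dotted lines at 1.5-fold. Esm1, Hlx, Apln, Aplnr and Cxcr4 lie past 1.5-fold, and 7 genes lie inside it.

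The rest of the pathway differed little in endothelial-like cells. Of 35 measured genes of intracellular VEGF receptor signaling, from phospholipase C to MAP kinases and calcineurin, 0 were past 1.5-fold in either direction, and their median log2 ratio was near 0. Of 11 receptor partners and modulators, Vash1 (vasohibin 1, an inhibitor of angiogenesis) was higher with 32 and 20 UMIs and an interval (-0.06 to 1.68) that included 0, and Thbs1 (thrombospondin 1, also an inhibitor) was lower, at 5.51 and 9.79 CPM, a log2 ratio of -0.83 (-1.42 to -0.26). Of 8 regulators of the hypoxic response, 0 were past 1.5-fold. Of 12 hypoxia-inducible targets, 1 was, Adm (adrenomedullin, a vasodilator peptide), at 57.4 and 32.5 CPM, a log2 ratio of 0.82 (0.59–1.05), and the median of that list was -0.12. The Adm value was 0.46, inside the limit, with the same cluster makeup in both libraries. Tie1, Tek and Angpt2, of the angiopoietin system, were all inside 1.5-fold. Among the sparse ligands of this class, Pgf had 32 and 62 UMIs in 12 and 21 cells, a log2 ratio of -0.84 (-1.50 to -0.20), and Vegfd 35 and 25 UMIs, with an interval of -0.18 to 1.40.

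The genes most like each member in their level over 23 cell groups are given as a description, by Pearson's r of log2(CPM + 10). The groups share libraries and depth, and 2 matched genes, Cyyr1 and Gpihbp1, were also markers used to name endothelial and capillary-like cells. The groups were named classes and subsets with at least 50 cells, so some of them share cells. Kdr was most like Gpihbp1 (r = 0.99), the capillary anchor of lipoprotein lipase, then Aqp7 and Kank3, and Flt1 was most like Cyyr1 (r = 0.98), Adgrf5 and Ptprb. Flt4 was most like Tie1 (r = 0.99), Rasip1 and Robo4. Lymphatic-like cells, where Flt4 was highest, were too few to enter (21 and 10 cells). Coreceptor patterns had looser matches, Slfn5 (r = 0.90), Anxa7 and Kitl for Nrp1, and Stxbp6 (r = 0.85), Rgl1 and Pcyox1l for Nrp2. Among ligands, the first matches were Gm26885 (r = 0.83) for Vegfa, followed by Wdr63 and Slc6a7, Dnlz (r = 0.93) for Vegfb, followed by Cmbl and Fastk, and Arhgap8 (r = 0.87) for Vegfc, followed by Cadps2 and Smad6. Those of Vegfd were Gm14003 (r = 0.88), Islr2 and Gpr161, and those of Pgf were Hhipl1 (r = 0.80), Camkk1 and Hsd3b7. Several ligand matches were sparse, such as Wdr63, Slc6a7 and Arhgap8 with 103, 146 and 188 UMIs over all kept cells. Within the family, r was 0.95 between Flt1 and Kdr and 0.75 between Vegfa and Vegfd.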

How the data were processed

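Single-cell suspensions were profiled with the 10x Genomics 3′ kit. Per the study's methods, the authors aligned reads and counted UMIs with Cell Ranger 7.2.0 on mm10, and the deposited values are raw UMI counts per gene and barcode. The submitters' processing notes and extraction labels describe a bulk protocol and were not used. Cells with 300 to 5000 genes, under 20% mitochondrial and under 0.25% Hbb- UMIs were kept, and 7.5% of them were removed as doublets by artificial neighbors. Counts were scaled to 10000 per cell, and 2000 variable genes (without the family, pathway and interferon lists), 30 components and Louvain clustering at resolution 0.8 gave clusters, named from marker lists and called X-like (Python 3.11.15, numpy 2.4.6, scipy 1.17.1, scikit-learn 1.9.0, igraph 0.11.9). Names may differ from the study's. UMIs were summed per class and library. Intervals were exact Poisson, Clopper-Pearson or conditional binomial. The conditional binomial interval of ratios was tested on simulated Poisson sums. Such sums cannot show the effect of UMIs clumped in a few cells. With 1 library per group, no test was made, and genes with at least 50 UMIs were called at 1.5-fold. Members, lists and naming rules (up to 4 genes past the fold per list, 3 most similar genes per member) were chosen with earlier results of these data known. Thinning to 1000 UMIs left out shallower cells. Alternatives are described in the closing section.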

Additional observations from a re-analysis of the deposited data

Results flagged for a closer look

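Several genes had intervals on opposite sides of 0 in different cell classes. The difference between classes was not tested, since each class has 1 library per treatment. The log2 ratio of Vegfc was 0.58 in endothelial-like, 0.51 in tenocyte-like and 0.25 in FAP-like cells and -0.65 in MuSC-like cells. That of Flt1 was 1.48 in Schwann-like cells, where 4 ATRA+agonist cells held its UMIs, and -0.10, -0.58 and -1.11 in endothelial-like, FAP-like and smooth muscle or pericyte-like cells. Nrp1 had 0.20 in endothelial-like and 0.70 in Schwann-like cells but -0.13 in FAP-like and -0.63 in MuSC-like cells. Nrp2 had 0.28 in endothelial-like and 0.44 in Schwann-like cells but -0.23 in FAP-like and -0.34 in monocyte or macrophage-like cells.

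The barcodes that were removed, 3537 in the ATRA+agonist and 10441 in the vehicle library, also held transcripts of the family and entered no comparison. There, 8 genes were higher in the ATRA+agonist library, with log2 ratios of 1.40 for Kdr, 1.06 for Flt1, 1.23 for Flt4, 1.197 for Nrp1, 1.499 for Nrp2, 0.69 for Vegfa, 0.90 for Vegfb and 1.64 for Vegfc. The hemoglobin filter was failed by 2656 and 9721 barcodes, and the part of this in those ratios was not tested. How many of all genes were higher in the removed barcodes was not counted, so the 8 genes have no background.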

How the results depend on the processing

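No paired analysis was possible because each treatment has 1 library. Kdr in endothelial-like cells, at a log2 ratio of 0.52, had 0.58 without the hemoglobin filter, 0.47 after thinning to 1000 UMIs, 0.44 with median-of-ratios scaling and 0.24 with the same cluster makeup. Flt1 there had -0.0037 without the hemoglobin filter, -0.073 with each cell classed on its marker UMIs alone, -0.18 with median-of-ratios scaling, -0.17 as a mean over cells and -0.14 with the same makeup. Vegfc there had 0.74 with doublets kept, 0.87 without the hemoglobin filter and -0.060 without the interferon-led cluster. Vegfa in FAP-like cells was -0.11 after thinning. Flt1 in smooth muscle or pericyte-like cells had -0.31 with doublets kept, -0.73 as a mean over cells and 0.18, a reversal, with that assignment. In Schwann-like cells, Flt1 reversed to -1.75 with doublets kept and to -3.96 without the hemoglobin filter, and Nrp1 to -0.41 with doublets kept. The cause was not tested. With a minimum of 10 UMIs, 1537 genes were at least 1.5-fold higher and 1220 lower in endothelial-like cells, against 648 and 481. Of 327 other recomputed ratios, 292 stayed within the interval of the reported value, 32 lay outside it and 3, those in Schwann-like cells, reversed. Of 40 recomputed levels, 23 stayed within their interval and 17 did not. The makeup weighting, the omission of shallow endothelial clusters and the omission of the highest cells were chosen after seeing the data. The makeup weighting weights each cluster by its UMIs in both libraries. Its ATRA+agonist value for the interferon-led cluster comes from 49 cells. Pools of 2 mice, 1 library per treatment and rebuilt cell classes limit every value, and depth limits Vegfd and Pgf in endothelial-like cells and Vegfa in pericytes.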
